A study of Mus musculus with 12 samples.

Results

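The 9 genes described here are Reln, which encodes the secreted protein reelin, its receptors Vldlr and Lrp8 with their adaptor Dab1, the secreted ligands Slit1, Slit2 and Slit3, and the Slit receptors Robo1 and Robo2. They were chosen by symbol from a table of 24421 entries. All 9 were in the table, and all 9 were among the 13108 entries tested, which had a normalized count of at least 10 in at least 3 libraries.

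The cells were sorted by GFP fluorescence from mouse spinal cord and are labelled as astrocytes. Control and conditional knockout (cKO) groups alike carried the Aldh1l1-GFP reporter allele. Per the labels, the groups were male control, male Nkx6.1 cKO, female control and female Nkx6.1 cKO, with 3 libraries each. Control animals are labelled only as controls, and the age, the strain, the Cre driver and the deleted part of Nkx6-1 are absent from the labels. Nothing in the labels states that replicates are different animals, and the p-values below therefore describe spread among libraries that may be technical.

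Reelin is a large secreted glycoprotein that binds the lipoprotein receptors encoded by Vldlr and Lrp8 (also called ApoER2). Binding leads Src-family kinases to phosphorylate the adaptor encoded by Dab1, and this pathway positions migrating neurons. Slit proteins are secreted guidance cues, mostly repulsive, that bind receptors of the Robo family on axons and migrating cells. In the ventral white matter of the embryonic spinal cord, the homeodomain factors Pax6 and Nkx6-1 are known to mark astrocyte positions, with reelin produced in the Pax6 domain and Slit1 in the Nkx6-1 domain. The comparison of cKO with control libraries asks what these positional genes and their receptors look like in the GFP-sorted cells when Nkx6-1 is targeted.

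Depth ranged from 2246412 to 9054934 reads assigned to genes over the 12 libraries. The library labelled male cKO replicate 2 closely matched female cKO replicate 2: the chi-square statistic of their counts was 1.06 per degree of freedom, against 15.2 to 145 for the other 65 pairs. It held 3546 Xist reads and 0 reads of Y-linked genes, so it went against its label and was counted in no comparison, which left 11 libraries and 2 male cKO libraries. Nkx6-1 itself gave 3, 9 and 2 reads in the male controls and 19, 7 and 12 reads in the female controls. Nkx6-1 gave 0 reads in male cKO replicate 1 and in female cKO replicates 1 and 2, but 18 reads in male cKO replicate 3 and 19 reads in female cKO replicate 3. The last 2 libraries, at normalized counts of 25.6 and 28.3, stood above the highest control at 15.2, so the targeted gene went against their label too, although reads outside the deleted part would check nothing. They are called the libraries labelled cKO replicate 3 here, and values without both are given for the genes and counts that they touch.

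Markers of astrocytes were abundant in every library. The summed normalized count of the 24 astrocyte markers in the table was 30481 to 64209 in male controls, 120527 to 135980 in male cKO libraries, 27558 to 110553 in female controls and 60158 to 116793 in female cKO libraries. Male cKO libraries were therefore above every male control in this sum, while the female groups overlapped. The summed count of 15 mature oligodendrocyte markers was higher still, from 137436 to 460358, with none of the 15 at 0 in any of the 11 libraries. It was above the astrocyte sum in each of the 11 libraries. These sums cover different genes and do not give shares of cells. In such bulk libraries, fewer cells of a type and less RNA per cell cannot be told apart.

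Per kilobase of transcript, Robo1, Vldlr and Lrp8 had the highest levels of the 9 genes, Robo2 stood below Reln and Dab1, and Slit1 was the lowest. The median normalized count per kilobase over the 11 libraries, using the transcript with the longest coding sequence, was 78.4 for Robo1, 70.3 for Vldlr, 44.7 for Lrp8, 27.3 for Reln, 21.1 for Dab1, 18.5 for Robo2, 11.9996 for Slit2, 5.99 for Slit3 and 1.195 for Slit1. Among neighbours in this order, Slit3 was above Slit1 in 11 of 11 libraries and Lrp8 was above Reln in 10. The other neighbours were less separated: Robo1 was above Vldlr in 6 libraries and Robo2 was above Slit2 in 5. With the length of all annotated exons joined, the order changed, with Vldlr first at 55.7, Robo1 at 31.3, Dab1 at 14.1, Lrp8 at 14.0 and Reln at 13.5. Slit1 was lowest on both lengths, at 1.02 on the joined exons.

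The start regions of Reln, Slit2 and Vldlr are shown because Pax6 and Nkx6-1 are homeodomain proteins, and homeodomains commonly bind sequences around a TAAT core. Each run is the 250 bases before the start in the RefSeq table for GRCm38.p6, read 5′ to 3′ on the gene's strand, with every TAAT or its complement ATTA in capitals.
Reln, chr5:22344706-22344955, minus strand: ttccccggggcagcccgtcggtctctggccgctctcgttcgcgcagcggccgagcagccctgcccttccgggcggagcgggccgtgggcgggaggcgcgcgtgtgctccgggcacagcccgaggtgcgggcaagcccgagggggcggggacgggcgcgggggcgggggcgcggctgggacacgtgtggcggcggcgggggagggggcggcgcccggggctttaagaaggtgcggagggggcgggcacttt
Slit2, chr5:47982905-47983154, plus strand: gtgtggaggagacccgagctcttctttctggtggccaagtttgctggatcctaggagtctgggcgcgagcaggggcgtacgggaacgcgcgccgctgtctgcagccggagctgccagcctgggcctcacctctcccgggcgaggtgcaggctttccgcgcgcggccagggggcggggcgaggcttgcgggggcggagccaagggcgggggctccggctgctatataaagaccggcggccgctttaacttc
Vldlr, chr19:27216234-27216483, plus strand: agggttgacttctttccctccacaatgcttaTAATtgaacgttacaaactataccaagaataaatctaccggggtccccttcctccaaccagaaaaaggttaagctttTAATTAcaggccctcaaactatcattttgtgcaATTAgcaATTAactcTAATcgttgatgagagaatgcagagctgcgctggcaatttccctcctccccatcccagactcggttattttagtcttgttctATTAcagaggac
The Reln and Slit2 windows held 0 matches, at 80.0% and 69.6% G and C. The Vldlr window shown held 7, with overlaps counted separately, at 41.6%. Another Vldlr start region, not shown, held 1 match at 66.4%. Over all 32851 RefSeq start regions of the same length, 54.9% held at least 1 match on either strand, and the median G and C content was 52.4%. Of the 14 start regions listed for 8 of the 9 genes, 7 held a match, and Slit1 had no start region listed. A match describes these letters only.

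Reln, the reelin gene on chromosome 5 (GRCm38, bases 21884454 to 22344702, minus strand), was the member with the smallest p-value. Its annotation shares 246 exonic bases with an antisense gene, and reads there cannot be assigned by strand here. Its normalized counts were 395, 165 and 319 in the male controls and 960 and 751 in the male cKO libraries. Its counts were 323, 193 and 131 in the female controls and 225, 276 and 722 in the female cKO libraries. Both male cKO libraries were thus above all male controls, whereas the female groups overlapped and the library labelled female cKO replicate 3 was the single high female library. Group means were 293 ± 117 (SD, n = 3) and 856 ± 148 (SD, n = 2) in males, and 216 ± 98.4 (SD, n = 3) and 407 ± 273 (SD, n = 3) in females. Averaged over the sexes, Reln was 2.33-fold higher in cKO libraries, a log2 fold change of 1.22 ± 0.33 (SE), with an unadjusted p of 0.00142 that ranked 35 of 13108 and an adjusted p of 0.439 in limma. The adjusted p therefore missed 0.05. The log2 fold change was 1.62 ± 0.49 (SE) in males, with an adjusted p of 0.276 in limma, and 0.82 ± 0.44 (SE) in females, with an adjusted p of 0.999. The difference between the sexes, female minus male, was -0.80 ± 0.66 (SE). Without both libraries labelled cKO replicate 3, the log2 fold change was 1.05 averaged over the sexes and 0.31 in females, so the female value rested on that library.

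**Figure D1:**
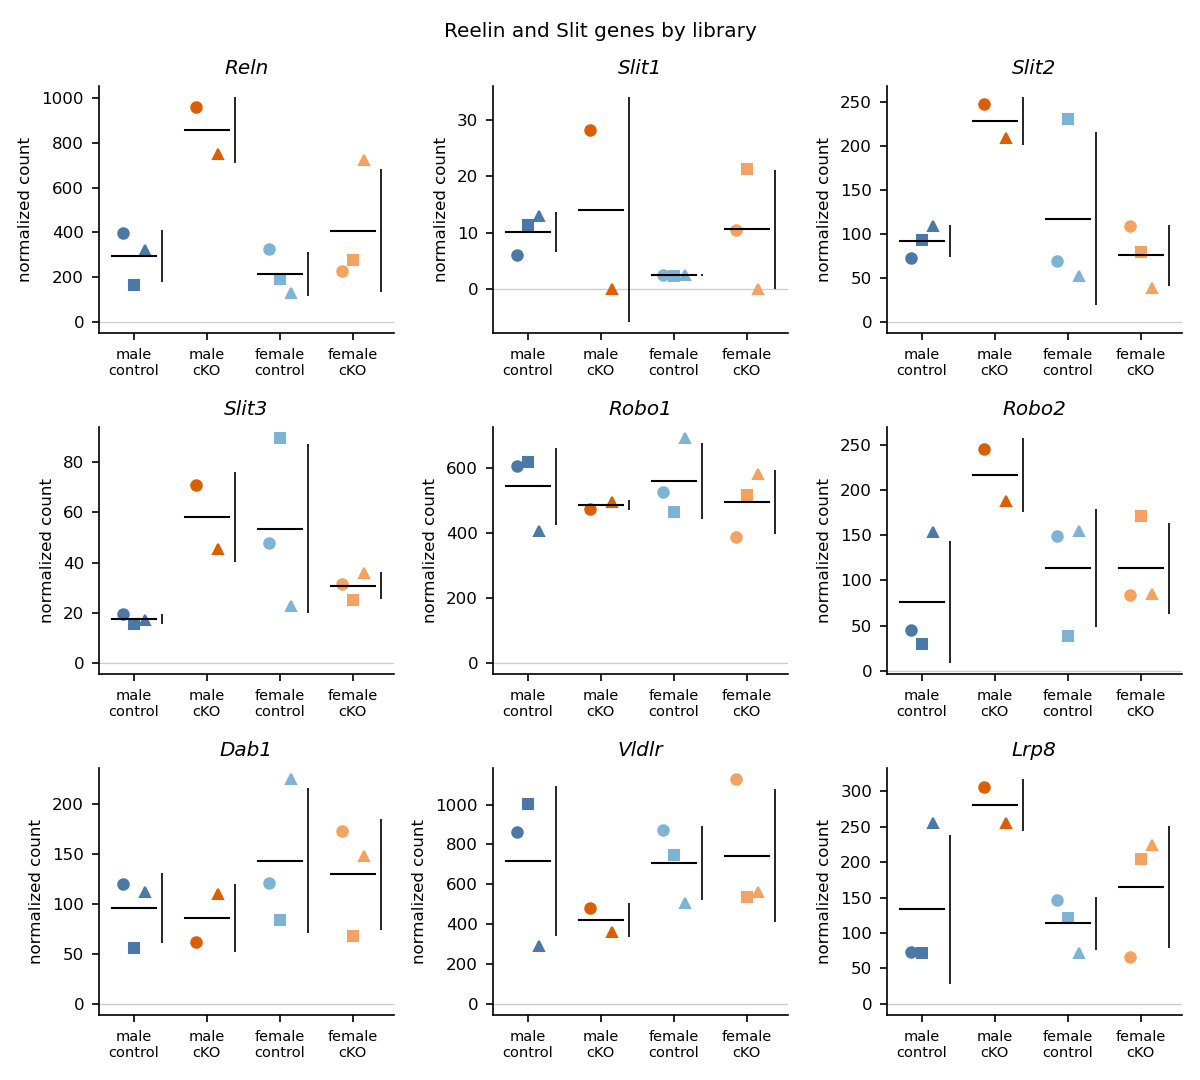
Normalized counts (y axis, linear) of the 9 genes in the 11 libraries, by sex and genotype (x axis). Symbols are libraries, with circles, squares and triangles for replicates 1, 2 and 3, horizontal lines are group means and vertical lines are ± 1 SD (n = 3, or 2 for male cKO). For Reln both male cKO libraries, at 960 and 751, were above all controls, and for Slit1 both libraries labelled cKO replicate 3 were at 0.

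Slit1, a Slit ligand gene on chromosome 19 (bases 41600257 to 41743665, minus strand), was measured with few reads. Read counts were 12, 27 and 6 in the male controls, 33 and 0 in the male cKO libraries, 4, 4 and 2 in the female controls and 15, 11 and 0 in the female cKO libraries. The corresponding normalized counts were 6.03, 11.3 and 12.9, then 28.2 and 0, then 2.46, 2.23 and 2.54, then 10.4, 21.2 and 0. The 3 cKO libraries with 0 Nkx6-1 reads were above every female control, but female cKO replicate 1, at 10.4, was below male control replicates 2 and 3. The other 2 cKO libraries, which had the highest normalized counts of Nkx6-1, had no Slit1 read. A count of 0 reads allows up to 4.27 normalized counts in the male library labelled cKO replicate 3 and 4.47 in the female library, which is above the female controls, so these zeros were not separable from the female controls at this depth. That limit and other intervals from reads cover counting error only.

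Averaged over the sexes, the log2 fold change of Slit1 was -0.04 ± 1.07 (SE), with an adjusted p of 0.996 in limma. The values were -0.97 ± 1.60 (SE) in males and 0.90 ± 1.43 (SE) in females, and neither passed. Without both libraries labelled cKO replicate 3, the averaged log2 fold change turned to 1.84 ± 0.92 (SE), with a lone male cKO library left. With all 11 libraries kept, the sign of the averaged value also changed, to 1.27 with edgeR and 1.32 with DESeq2, so no direction is given for Slit1. Female controls were below male controls without overlap, at a log2 difference of -1.64 ± 1.43 (SE) and an adjusted p of 1.00 in limma, and their total was 10 reads against 45.

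Across the 11 libraries Slit1 tended to be higher where Nkx6-1 was lower, but not within every group. In male controls Nkx6-1 at 1.51, 3.75 and 4.29 went with Slit1 at 6.03, 11.3 and 12.9. Female control replicate 2, with Nkx6-1 at 3.90, had Slit1 at 2.23. As a description, Pearson's r between the log2 values of Slit1 and Nkx6-1 was -0.886 and Spearman's rho was -0.795. That r was -0.786 without the 2 libraries farthest from the median of Nkx6-1. Both genes were measured from at most 33 reads in a library, and the libraries share their depth. Reln and Nkx6-1 gave an r of 0.091, but r was -0.516 without the same 2 libraries. Pax6 normalized counts were 24.6, 10.0 and 36.4 in male controls, 24.8 and 39.9 in male cKO libraries, 50.4, 9.46 and 22.9 in female controls and 12.5, 63.7 and 46.2 in female cKO libraries, so the groups overlapped in both sexes. Reln and Pax6 gave an r of 0.498.

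**Figure D2:**
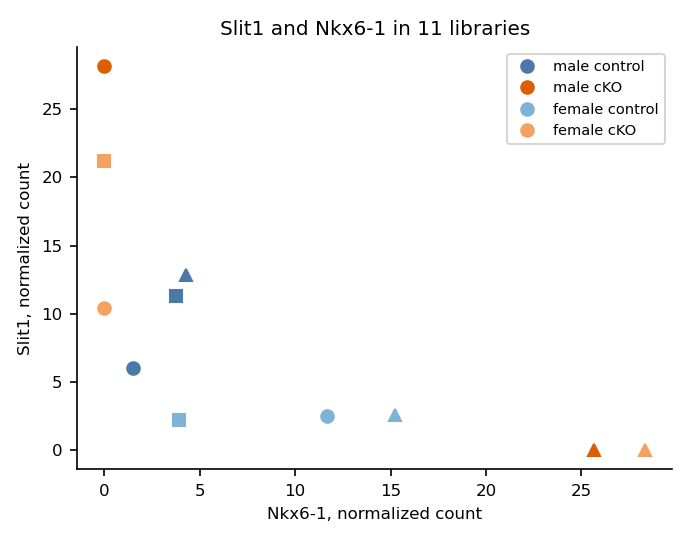
Normalized counts of Slit1 (y axis) against Nkx6-1 (x axis) in 11 libraries, 1 point each, with colours for sex and genotype and circles, squares and triangles for replicates 1, 2 and 3. The 2 libraries at the right, labelled cKO replicate 3, have Nkx6-1 at 25.6 and 28.3 and Slit1 at 0, and the highest Slit1 value of 28.2 has Nkx6-1 at 0.

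The ratio of Slit1 to Reln puts both positional genes on a single scale. The log2 ratio was -6.41 ± 2.89 (SD, n = 5) in cKO libraries and -5.30 ± 1.02 (SD, n = 6) in controls, a difference of -1.11 with an exact two-sided permutation p of 0.390. Within males the difference was -2.60 with an exact permutation p of 0.400, and within females it was 0.08 with an exact permutation p of 1.00, neither of which can reach 0.05 at these group sizes because 10 and 20 arrangements exist. Without both libraries labelled cKO replicate 3, the difference turned to 0.97 with an exact permutation p of 0.167.

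Slit2, on chromosome 5 (bases 47983138 to 48307733, plus strand), is a further Slit ligand gene. It had normalized counts of 72.4, 93.4 and 109 in male controls and 248 and 209 in male cKO libraries. In females the counts were 69.5, 230 and 52.1 in controls and 109, 79.1 and 38.8 in cKO libraries. Male cKO libraries were above all male controls, and in females the groups overlapped with female control replicate 2 far above the rest. The log2 fold change was 1.32 ± 0.61 (SE) in males and -0.44 ± 0.55 (SE) in females, with adjusted p-values of 0.489 and 0.999 in limma. The difference of these effects was -1.76 ± 0.82 (SE), with an unadjusted p of 0.0444 and an adjusted p of 0.891 in limma. Without female control replicate 2 that difference was -1.12, and the female effect was 0.20 rather than -0.44.

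Slit3, on chromosome 11 (bases 35121224 to 35708507, plus strand), encodes the last of the 3 Slit ligands and had the same arrangement by sex. Its normalized counts were 19.6, 15.4 and 17.1 in male controls and 70.8 and 45.6 in male cKO libraries. In females they were 48.0, 89.6 and 22.9 in controls and 31.3, 25.1 and 35.8 in cKO libraries. Male controls were the lowest group, with an SD of 2.09 around a mean of 17.4, and all 3 female controls were above them. The log2 fold change was 1.66 ± 0.78 (SE) in males and -0.59 ± 0.70 (SE) in females, with adjusted p-values of 0.501 and 0.999 in limma. The difference of these effects was -2.25 ± 1.05 (SE), with an unadjusted p of 0.0434 and an adjusted p of 0.891 in limma. Between female and male controls the log2 difference of Slit3 was 1.37 ± 0.70 (SE), with an adjusted p of 1.00 in limma. The sexes also differ in the number series of their library names, so sex and library series cannot be told apart.

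Markers of mural cells and fibroblasts had a higher summed count in the male cKO libraries beside Slit2 and Slit3. The summed count of 12 such markers was 8914 to 23041 in male controls, 23438 to 39659 in male cKO libraries, 4831 to 14620 in female controls and 3655 to 21564 in female cKO libraries, and Kcnj8 was at 0 in a female cKO library. All 12 had a log2 fold change above 0 in males, with a median of 0.74 and 0 passing. Their mean log2 value overlapped in males, at 7.45 to 8.08 in controls and 7.88 to 9.12 in cKO libraries. The r of this mean with Slit2 was 0.491 and with Slit3 was 0.576 over the 11 libraries. Without the 2 farthest libraries, r was 0.189 with Slit2 and 0.417 with Slit3. The part of these markers in the Slit values was not tested.

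Robo1, a Slit receptor gene on chromosome 16 (bases 72308306 to 73046095, plus strand), had a mean of 525 ± 92.7 (SD, n = 11) over the 11 libraries. Its normalized counts were 605, 618 and 407 in male controls, 475 and 496 in male cKO libraries, 525, 465 and 692 in female controls and 387, 517 and 581 in female cKO libraries. The groups overlapped in both sexes. The averaged log2 fold change was -0.16 ± 0.22 (SE), with an adjusted p of 0.877 in limma.

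Robo2, the other Slit receptor gene followed here (chromosome 16, bases 73891839 to 74411825, minus strand), was highest in the male cKO libraries. Its normalized counts were 45.2, 30.0 and 154 in male controls and 246 and 188 in male cKO libraries. In females they were 149, 38.4 and 155 in controls and 83.5, 172 and 85.0 in cKO libraries. Both male cKO libraries were above all male controls, while the female groups had nearly equal means of 114 ± 65.6 (SD, n = 3) and 113 ± 50.5 (SD, n = 3). The log2 fold change was 0.99 ± 0.46 (SE) averaged over the sexes and 1.83 ± 0.69 (SE) in males, with adjusted p-values of 0.564 and 0.391 in limma. The difference between the sexes was -1.68 ± 0.92 (SE), with an unadjusted p of 0.0817 and an adjusted p of 0.895 in limma.

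Robo2 moved with the astrocyte markers over the libraries. The 24 astrocyte markers had a mean log2 value of 9.42 ± 0.593 (SD, n = 3) in male controls, 10.98 ± 0.127 (SD, n = 2) in male cKO libraries, 10.2 ± 1.05 (SD, n = 3) in female controls and 10.3 ± 0.472 (SD, n = 3) in female cKO libraries. Over the 11 libraries, Pearson's r of Robo2 with this mean was 0.954 and Spearman's rho was 0.945, and r was 0.894 without the 2 farthest libraries. With the astrocyte marker mean as a covariate in the limma model, the log2 fold change of Robo2 went from 0.99 to -0.09 averaged over the sexes and from 1.83 to -0.15 in males. Reln kept a log2 fold change of 1.11 averaged over the sexes and 1.42 in males with the same covariate. Its r with the marker mean was 0.430, and 0.122 without the 2 farthest libraries. Slit2 and Slit3 had larger male values with the covariate, at 2.29 ± 0.79 (SE) and 2.52 ± 1.10 (SE), and their SEs were larger too. No value with the covariate had an adjusted p under 0.05. The marker mean was 8.88 to 10.06 in male controls and 10.89 to 11.07 in male cKO libraries. It did not overlap, so the male values with the covariate rest on the fitted slope. These values depend on how the covariate enters. When each library's marker mean was subtracted from the log2 value instead, Reln was at -1.31 ± 0.540 (SD, n = 3) in male controls and -1.25 ± 0.377 (SD, n = 2) in male cKO libraries, Slit2 was at -2.91 and -3.15, Slit3 at -5.23 and -5.13, and Robo2 at -3.50 and -3.23. The male differences of Reln, Slit2 and Slit3 on that scale were therefore far smaller than with the covariate. In females Reln was at -2.53 ± 1.17 (SD, n = 3) in controls and -1.86 ± 1.10 (SD, n = 3) in cKO libraries on it. Its difference was thus larger in females than in males there, unlike in the limma fit. Female Slit2 was at -3.62 and -4.20, and Slit3 at -4.63 and -5.36.

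**Figure D3:**
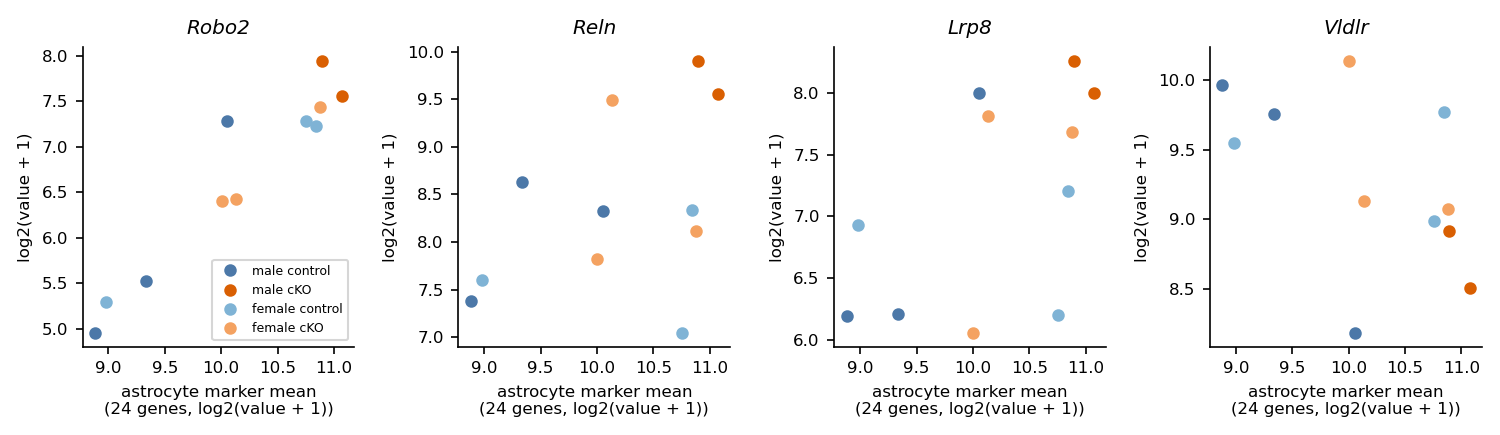
Log2(normalized count + 1) of Robo2, Reln, Lrp8 and Vldlr (y axes) against the mean log2(normalized count + 1) of 24 astrocyte markers (x axes) in 11 libraries, 1 point each, coloured by sex and genotype. Robo2 followed the marker mean with an r of 0.954. The r of Reln with it was 0.430, and 0.122 without the 2 farthest libraries.

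Vldlr, a reelin receptor gene on chromosome 19 (bases 27216484 to 27254231, plus strand), had normalized counts of 865, 1001 and 289 in male controls and 481 and 362 in male cKO libraries. In females they were 873, 746 and 507 in controls and 1128, 538 and 561 in cKO libraries. The groups overlapped in both sexes, with male control replicate 3 the lowest of all 11 libraries. The log2 fold change was -0.29 ± 0.31 (SE) averaged over the sexes and -0.59 ± 0.46 (SE) in males, with adjusted p-values of 0.830 and 0.722 in limma. With the astrocyte marker mean as a covariate these values turned to 0.13 and 0.18.

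Lrp8, the other reelin receptor gene (chromosome 4, bases 107802261 to 107876840, plus strand), had normalized counts of 72.9, 72.1 and 255.0 in male controls and 306 and 255.1 in male cKO libraries. In females they were 147, 121 and 72.4 in controls and 65.4, 205 and 224 in cKO libraries. The male groups were separate only by the margin between 255.0 and 255.1, and the female groups overlapped. The log2 fold change was 0.87 ± 0.40 (SE) averaged over the sexes and 1.33 ± 0.60 (SE) in males, with adjusted p-values of 0.564 and 0.473 in limma. With the astrocyte covariate the averaged value was 0.51.

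The 2 reelin receptors went in opposite directions from library to library, with an r of -0.753 between them over the 11 libraries. Vldlr gave an r of 0.802 with the mean of the 15 mature oligodendrocyte markers, and Lrp8 gave -0.832 with the same mean. Reln gave -0.749 with it and 0.748 with Lrp8. The oligodendrocyte marker mean was 11.2 ± 0.442 (SD, n = 6) on the log2 scale in controls and 10.6 ± 0.378 (SD, n = 5) in cKO libraries, and 13 of the 15 markers had a negative averaged log2 fold change, with a median of -0.78 and 0 passing. The part of these markers in the receptor and Reln values was not tested.

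Dab1, the adaptor gene that acts inside the cell downstream of both reelin receptors (chromosome 4, bases 103619359 to 104744844, plus strand), did not separate the groups. Its normalized counts were 120, 55.9 and 111 in male controls, 61.5 and 110 in male cKO libraries, 121, 84.1 and 225 in female controls and 173, 67.5 and 148 in female cKO libraries. The averaged log2 fold change was -0.14 ± 0.39 (SE), with an adjusted p of 0.947 in limma, and the male and female values were -0.14 and -0.13.

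Read together, 0 of the 9 genes passed an adjusted p of 0.05 in any contrast, and 0 did so with edgeR or DESeq2 on the recovered reads. In limma 0 of all 13108 tested entries passed in the averaged, male, female and difference contrasts (0%), and 5 passed between female and male controls (0.0381%). At an unadjusted p under 0.05, the averaged contrast held 3 of the 9 (Reln, Robo2 and Lrp8), all higher in cKO libraries, against 8.57% of all tested entries and 3.56% counting higher entries alone. In males it held 5 of the 9 (Reln, Slit2, Slit3, Robo2 and Lrp8), all higher, against 9.70% of all entries, and 4.17% counting higher entries alone. In females it held 0 of the 9, against 3.90%, and in the contrast of the sexes it held 2 of the 9 (Slit2 and Slit3), against 5.58%. Between female and male controls it held 0 of the 9, against 1.83%.

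Leaving out both libraries labelled cKO replicate 3 leaves a single male cKO library, so members are not counted by p-value there. In males the log2 fold changes were then 1.80 for Reln, 2.03 for Robo2, 1.44 for Slit2, 1.97 for Slit3 and 1.46 for Lrp8. Their SEs rose to 0.56 for Reln, 0.92 for Robo2, 0.74 for Slit2 and 0.96 for Slit3. Averaged over the sexes, Reln was at 1.05, Robo2 at 1.17 and Lrp8 at 0.78. The lone male cKO library was assumed to vary like the other groups, as in the cases below that leave out a male cKO library.

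With all 11 libraries, the same 5 genes had both male cKO libraries above all 3 male controls, where 12.7% of all entries did. No member was separate in females, where 9.14% of entries were, or with the sexes pooled, where 0.595% were. Slit1 and Slit3 were separate between female and male controls, where 8.00% were. With each of the 11 libraries left out in turn, the averaged contrast of Reln had an unadjusted p between 0.000519 and 0.00983 in limma, under 0.05 in 11 of 11 cases. Robo2 was under 0.05 in 5 of the 11 cases and Lrp8 in 4. In males Reln was under 0.05 in 11 cases, Robo2 in 9, Slit2 and Lrp8 in 7 each and Slit3 in 4. The median log2 fold change of the 9 genes was 0.44 averaged over the sexes, and 1.32 in males against 0.02 in females, beside medians of -0.02, -0.04 and -0.01 over all tested entries. The average shares its libraries with the contrasts within each sex. The astrocyte markers had all 24 log2 fold changes above 0 in males as well, with a median of 1.67, 18 at an unadjusted p under 0.05 and 0 passing the adjusted threshold.

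**Figure D4:**
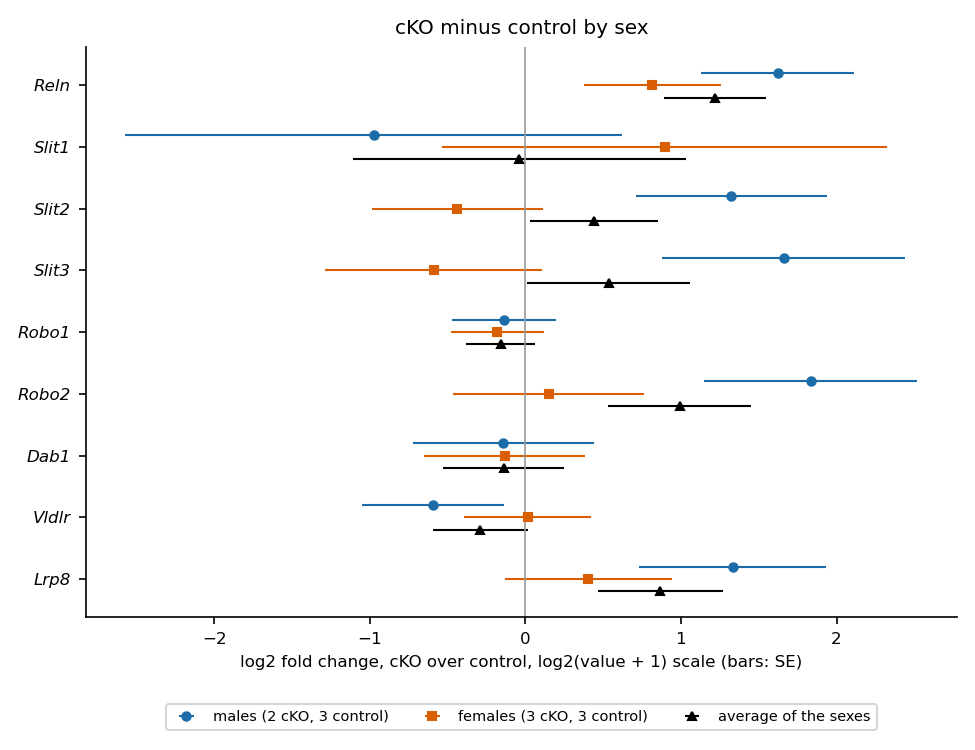
Log2 fold change of cKO over control on the log2(normalized count + 1) scale (x axis) for each of the 9 genes (y axis), for males, for females and as the average of both. Bars are 1 SE of the limma fit. Reln was at 1.62, 0.82 and 1.22, and Slit2 and Slit3 were above 0 in males and below 0 in females.

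The genes whose pattern over the 11 libraries was most like that of Reln were ranked by Pearson's r of log2 values. Tested entries were ranked, leaving out predicted genes, Riken clones and other clone, locus or Ensembl identifiers. The closest were Slc29a1 (a nucleoside transporter) at 0.928, Fkbp7 at 0.922, Jakmip1 at 0.913, Akr1c14 at 0.902 and Crispld1 at 0.896. For Slit1 they were Fam13b at 0.939, Slc17a6 (a vesicular glutamate transporter of neurons) at 0.892, Dhx30 at 0.874, Tmem261 at 0.868 and Usp29 at 0.861. These are the highest values among all the entries ranked, over 11 libraries, and they are descriptions. Slc17a6 ranged from 0 to 63.7 normalized counts, and the r of Slit1 with the mean of 11 tested neuron markers was 0.364. The summed count of 12 neuron markers was 775 to 1547 in male controls, 1722 to 2799 in male cKO libraries, 461 to 1552 in female controls and 1016 to 2252 in female cKO libraries, and Rbfox3, Slc17a6, Slc32a1 and Gad2 were at 0 in at least 1 library. The mean log2 value of the 11 tested markers ran the other way in males, at 5.75 ± 0.498 (SD, n = 3) in controls and 5.29 ± 0.287 (SD, n = 2) in cKO libraries. The part of neuron RNA in the Slit1 values was not tested.

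Among 106 further genes of these pathways, in 6 lists, 101 were tested and 0 passed in any contrast. At an unadjusted p under 0.05, 5 were higher and 2 lower in the averaged contrast, 9 were higher and 2 lower in males, and 1 was higher and 0 lower in females. Over all tested entries the shares at that threshold, in either direction, were 8.57%, 9.70% and 3.90%. The median log2 fold change of the 101 genes was -0.05 averaged over the sexes. The genes named below were among the 3 with the smallest unadjusted p of their list in the averaged contrast, and none passed.

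Of the 7 genes for proteases that process reelin or its regulators, Mmp14 had normalized counts of 207, 224 and 159 in male controls and 416 and 368 in male cKO libraries. In females Mmp14 had 215, 203 and 145 in controls and 249, 193 and 233 in cKO libraries, which overlapped, and its averaged log2 fold change was 0.64 ± 0.26 (SE). Adamts5, a secreted protease gene, was at 0.89 ± 0.41 (SE) and the convertase gene Furin at -0.75 ± 0.51 (SE). Of 31 tested genes of reelin signal transduction, 14 were above 0 and 17 below. Socs7 was at 0.79 ± 0.43 (SE) and the Src-family kinase gene Yes1 at 0.62 ± 0.35 (SE).

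Of 11 tested genes for other lipoprotein receptors and ligands, 7 were above 0. Clu, which encodes clusterin, was at 0.98 ± 0.30 (SE) with an unadjusted p of 0.00438 and an adjusted p of 0.439 in limma. Lrp1, a broad lipoprotein and protease receptor gene, had normalized counts of 2134, 2054 and 2102 in male controls and 4245 and 3158 in male cKO libraries. In females Lrp1 had 1520, 1616 and 2020 in controls and 1954, 1897 and 2199 in cKO libraries, which overlapped, and its averaged log2 fold change was 0.52 ± 0.18 (SE) with an adjusted p of 0.458 in limma. Apoe, an apolipoprotein gene expressed by astrocytes, was at 0.85 ± 0.43 (SE). Clu is also an astrocyte marker of the list above.

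Of 27 tested partners of Slit and Robo, 10 were above 0 and 17 below. Pak1, a kinase gene that acts downstream of Rac and Cdc42, was at -0.75 ± 0.26 (SE) with an adjusted p of 0.458 in limma. Hs6st1, a heparan sulfate sulfotransferase gene, was at -0.91 ± 0.49 (SE) and the plexin gene Plxna1 at -0.77 ± 0.41 (SE). Netrin and related guidance genes were below 0 in 9 of 11, with a median of -0.44 and 0 passing, where 51.7% of all tested entries were below 0. The netrin receptor genes Unc5c and Unc5b were at -0.50 ± 0.29 (SE) and -0.91 ± 0.57 (SE), and Ntng2 was at -1.08 ± 0.68 (SE).

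Of 14 tested genes in a list of ventral cord patterning factors and other transcription factors, 9 were above 0. Sox9, a transcription factor gene of astrocytes, had normalized counts of 222, 174 and 381 in male controls and 1010 and 591 in male cKO libraries. In females it had 522, 365 and 458 in controls and 321, 338 and 404 in cKO libraries, so male cKO libraries were above all male controls and the female groups overlapped. Its log2 fold change was 1.65 ± 0.38 (SE) in males with an adjusted p of 0.229 in limma, and the difference between the sexes was -1.98 ± 0.51 (SE) with an adjusted p of 0.882. Foxp1 was at -0.53 ± 0.31 (SE) and Zeb2 at -0.28 ± 0.17 (SE) averaged over the sexes. Sox9 is also in the astrocyte list.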

How the data were processed

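The genome build mm10 is named in the submitters' processing notes. The same notes list STAR 2.5.0a, DESeq2 1.20.0, FastQC 0.10.1 and MultiQC 0.9, with no role or order. Per the labels' protocols, libraries were made with a Trio RNA-seq kit from 10 ng of total RNA and sequenced in pairs. Whether counting used strand was not given in the sources used here. The deposited values are a normalized signal per gene and library, and dividing each library by its smallest step gave whole numbers, to within 0.01 reads, for 100% of non-zero values, so whole reads and depth were recovered. Reln shares 246 exonic bases with an antisense gene, and reads in that stretch cannot be told apart.

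Values were analysed as log2(value + 1), which understates changes of low genes, with limma 3.58.1 (intensity trend, robust variance) in R 4.3.3, with 1 mean per sex and genotype over 11 libraries, no replicate block, and contrasts averaged over sexes, within each sex, between the sexes' effects and between control sexes. Entries that reached 10 in 3 or more libraries were tested. Benjamini-Hochberg adjustment ran over all 13108, with a threshold of 0.05. The ratio was tested by exact permutation. Levels per kilobase used GENCODE transcripts and start regions came from RefSeq. Alternatives were edgeR 4.0.16 and DESeq2 1.42.0 on the recovered reads, other scalings, pseudocounts and filters, an astrocyte covariate and left-out libraries. The method was tested on simulated data with known changes.

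Named genes were the 9 members, reference genes, per list any passing gene or else the 3 with the smallest unadjusted p, and the 5 most correlated with Reln and with Slit1. Members and lists were chosen with earlier results of these data known, and some genes are not reported here. Replicate numbers did not pair the libraries: correlations of same-numbered libraries' deviations ranged from -0.11 to 0.06.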

Additional observations from a re-analysis of the deposited data

Results flagged for a closer look

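The library labelled male cKO replicate 2 entered no comparison, and 2 genes drew attention in it because their values were above every control library. Slit1 was at 18.7 normalized counts there, from 9 reads, beside a highest control of 12.9. Robo2 was at 172 normalized counts, beside a highest control of 155. Female cKO replicate 2, which that library closely matched, had 21.2 for Slit1 and 172 for Robo2.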

How the results depend on the processing

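Of 1035 values of the 9 genes recomputed under 23 alternatives, 970 kept their direction, 65 turned and 0 passed an adjusted p of 0.05, with a lowest adjusted p of 0.128, for Reln averaged over the sexes with DESeq2. Over these 23 alternatives Reln stayed above 0 in each sex and averaged, from 0.93 to 1.39 averaged, and its adjusted p ranged from 0.128 to 0.999. Subtracting the astrocyte marker mean is not among them. On that scale Reln was at -1.92 ± 1.05 (SD, n = 6) in controls and -1.62 ± 0.868 (SD, n = 5) in cKO libraries, a smaller difference. The cause of the turns was not tested.

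Slit1 averaged over the sexes turned to 0.28 with a pseudocount of 10, 1.27 with edgeR, 1.32 with DESeq2, 0.27 with all 12 libraries, 1.84 without both libraries labelled cKO replicate 3 and 0.12 with the replicate block. In males it turned to 0.49 with edgeR, 0.52 with DESeq2 and 1.46 without both libraries labelled cKO replicate 3, and in females to -0.0099 without cKO replicate 2. With the astrocyte marker covariate, Robo2 turned to -0.095 averaged, -0.15 in males, -0.035 in females, 0.12 in the difference and -0.30 between controls. Robo2 in females also turned to -0.040 with edgeR, -0.010 with DESeq2 and -0.19 without cKO replicate 2. With the covariate, Vldlr turned to 0.13 averaged, 0.18 in males and -0.095 in the difference, and Robo1 to 0.028 in the difference. Vldlr in females turned to -0.016 with TMM factors, Lrp8 between controls to 0.023 with DESeq2 factors and 0.028 with TMM factors, and Dab1 without cKO replicate 2 to 0.067 averaged and 0.28 in females. With the astrocyte marker mean subtracted, chosen after seeing the data like the joined exon lengths, the male values were 0.062 for Reln, -0.24 for Slit2, which turned, 0.10 for Slit3 and 0.27 for Robo2, with no test. The log2 ratio of Slit1 to Reln turned to 0.97 without both libraries labelled cKO replicate 3.

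Counts of passing entries moved with DESeq2 from 0 to 29 averaged, 84 in males, 2 in females and 11 in the difference. They moved to 14 in males without both libraries labelled cKO replicate 3 and to 1 in the difference without cKO replicate 2. Between controls they moved from 5 to 1 with a pseudocount of 0.1 and to 0 with all 12 libraries.

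With each library left out in turn, counts of passing entries ranged from 0 to 2 averaged, 0 to 22 in males (22 without the library labelled male cKO replicate 3), 0 to 1 in females and in the difference, and 2 to 6 between controls. Values that turned had these ranges. Slit1 went from -1.26 to 1.18 averaged, -3.41 to 1.46 in males, -0.0099 to 2.23 in females and -0.56 to 4.30 in the difference. Slit2 went from -0.86 to 0.20 in females and -0.58 to 0.48 between controls. Robo1 went from -0.17 to 0.15 in the difference and -0.14 to 0.17 between controls, and Robo2 from -0.50 to 0.49 in females. Dab1 went from -0.35 to 0.068 averaged, -0.56 to 0.27 in males, -0.46 to 0.28 in females and -0.40 to 0.42 in the difference. Vldlr went from -0.33 to 0.20 in females and -0.43 to 0.46 between controls, and Lrp8 from -0.33 to 0.58 between controls. The ratio stayed between -1.80 and -0.32. A lone library in a group was assumed to vary like the other groups. The replicate block changed no call of the 9 genes, and the ratio was -0.86 with it. Slit1 is limited by depth, with at most 33 reads in a library.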
